A study of Mus musculus with 6 samples.

Results

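The genes described here carry the names of subunits of respiratory complex I. They were chosen by name alone, as all gene symbols that begin with Ndufa, Ndufb, Ndufc, Ndufs or Ndufv followed by a digit, or with mt-Nd. This gave 45 of the 28649 genes named in the 6 libraries, 38 of them nuclear and 7 mitochondrially encoded, and all 45 were listed in each library. The libraries are droplet single-cell RNA-seq and are labelled as 4T1, a mouse line derived from a mammary carcinoma. For all 6, the labels give 4T1 cells that received lentivirus for 48 h and then puromycin at 2 µg/mL for 7 days. Barcodes with immune and stromal genes were present as well. In 3 libraries the virus carried a non-targeting short hairpin (shNC) and in 3 a hairpin against Pgk1 (shPgk1), which encodes a glycolytic enzyme. The sources used here name no host strain, sex, age or time of growth, and do not say whether the 3 libraries of a group are separate animals or cultures. The p-values therefore reflect how these libraries vary, which may be technical.

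Complex I is the entry point of the mitochondrial respiratory chain. It takes electrons from NADH, passes them along iron-sulphur clusters to ubiquinone and pumps protons across the inner membrane. Its core is encoded in both the nuclear and the mitochondrial genome: the subunits of the peripheral arm, which bind NADH and carry the electrons, are nuclear, and the mt-Nd proteins form the proton-pumping core of the membrane arm. The remaining nuclear subunits, called supernumerary, surround the core and are needed for its assembly or stability. Of the 38 nuclear members, 7 encode core subunits, among them Ndufv1, Ndufs3 and Ndufs7, and 31 were counted as supernumerary. Ndufa4 and Ndufa4l2 carry complex I names, although Ndufa4 protein is today assigned to complex IV and Ndufa4l2, its paralog, is known as a hypoxia-induced gene. In the GENCODE M21 annotation (GRCm38), the 38 nuclear genes lie on 16 chromosomes. The mt-Nd genes lie on the mitochondrial chromosome, 6 on the plus strand and mt-Nd6 on the minus strand. mt-Nd4l overlaps mt-Nd4 by 7 bases and mt-Nd5 overlaps mt-Nd6 by 14 bases. The sources used here do not say how reads were assigned where genes overlap, between Ndufa4 and Ndufa4l2, or between nuclear genes and their processed copies.

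The libraries held 78778073 to 128933960 unique molecular identifiers (UMIs) and 41434 kept barcodes. Although the labels describe a cell line, barcodes with immune and stromal genes were present in every library. A barcode was placed in a lineage by its own level of 1 or a pair of marking genes, none of which is a complex I gene: Epcam and Krt8 (epithelial, 5438 barcodes), Csf1r and Cd68 (macrophage, 6554), Cd3e (T cell, 2794), S100a8 (neutrophil, 1227), Col1a2 (fibroblast, 1662) or Cdh5 (endothelial, 748). The remaining 21160 barcodes carried no mark and 1851 carried several. Clustering of all kept barcodes placed 99.6% of the Epcam/Krt8-marked and 95.1% of the Col1a2-marked barcodes in clusters of the same lineage, and 92.6% of the Csf1r/Cd68-marked ones. The share was 64.4% for Cd3e, 76.4% for S100a8 and 42.2% for Cdh5, and S100a8 reached only 24.2% in shPgk1 library 1. Of 8 epithelial marker genes that were not used for marking, none was at 0 in any lineage. Their summed level in Cdh5-marked barcodes was 715 to 956 CPM (UMI counts scaled to a common total, here for the sum over a lineage in a library) in shNC and 2175 to 2492 CPM in shPgk1, against 4755 to 6283 CPM in Epcam/Krt8-marked barcodes. In S100a8-marked barcodes it was 414 to 601 CPM in shNC and 1214 to 2264 CPM in shPgk1, and in Cd3e-marked barcodes 636 to 772 and 896 to 2268 CPM. For these 3 lineages, values from whole clusters are given beside those from marked barcodes for the sums and for part of the other results. Where no cluster value is given, the value rests on marked barcodes alone. The libraries labelled shPgk1 did not hold less Pgk1 than the shNC ones. In Epcam/Krt8-marked barcodes it stood at 305, 284 and 264 CPM in the shNC libraries and at 271, 317 and 332 CPM in shPgk1 (log2 difference 0.19 ± 0.11 SE, adjusted p = 0.318), and its log2 difference lay between −0.13 and 0.21 over the 6 lineages. "shPgk1" below therefore means the libraries labelled so.

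Summed over members, epithelial and macrophage lineages held similar levels of nuclear complex I transcripts and differed in the mitochondrial ones. The 38 nuclear genes summed to 8095 ± 355 CPM in Epcam/Krt8-marked barcodes and 7670 ± 325 CPM in Csf1r/Cd68-marked ones (mean ± SD, n = 6 libraries). The 7 mt-Nd genes summed to 2227 ± 318 and 987 ± 148 CPM in the same lineages. Per 100 nuclear complex I counts, this was 27.7 ± 5.18 mt-Nd counts in Epcam/Krt8-marked and 12.8 ± 1.38 in Csf1r/Cd68-marked barcodes. The ranges over libraries, 22.9 to 35.5 and 11.3 to 15.3, did not overlap. Fibroblast values (7416 ± 292 CPM nuclear, 1028 ± 82.5 CPM mt-Nd) lay near those of the macrophage lineage. S100a8-marked barcodes had the lowest nuclear sum, 5511 ± 833 CPM, at an mt-Nd sum of 1693 ± 803 CPM that ranged from 700 to 2831 CPM between libraries. Cd3e-marked barcodes held 7516 ± 281 CPM nuclear and 1659 ± 304 CPM mt-Nd, and Cdh5-marked ones 7496 ± 632 and 1665 ± 232 CPM. In whole clusters the epithelial lineage stood at 7828 ± 601 CPM of nuclear and 3317 ± 372 CPM of mt-Nd transcripts, or 42.9 ± 8.24 mt-Nd counts per 100 nuclear ones, above the value in marked barcodes, and the macrophage lineage at 12.6 ± 0.975 per 100. In whole clusters the T lineage stood at 7267 ± 326 CPM of nuclear and 1009 ± 105 CPM of mt-Nd transcripts. In the same order the neutrophil lineage stood at 3634 ± 330 and 1072 ± 332 CPM there, and the endothelial lineage at 6719 ± 454 and 1599 ± 260 CPM. These sums are descriptions without a test.

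**Figure D1:**
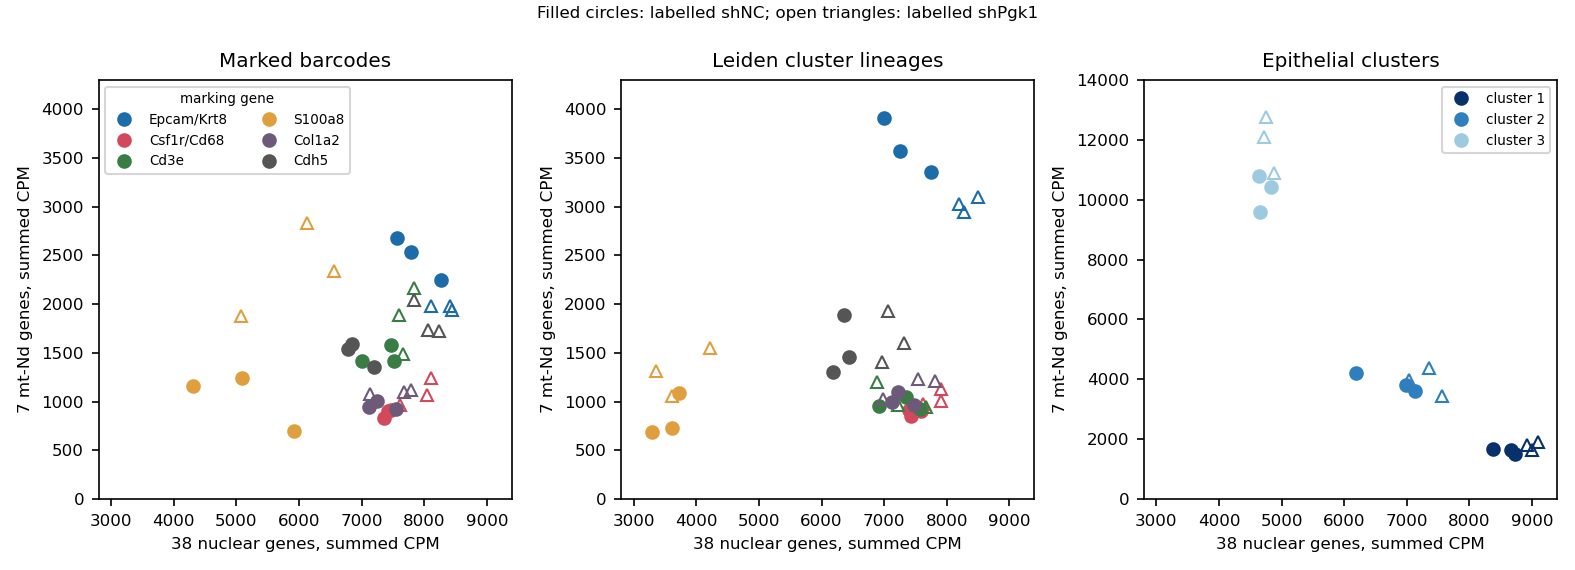
Summed CPM of the 38 nuclear complex I genes (horizontal axis) against the summed CPM of the 7 mt-Nd genes (vertical axis), 1 point per library, with filled circles for shNC and open triangles for shPgk1. The left panel shows marked barcodes by marking gene, the middle panel whole Leiden clusters, and the right panel the 3 epithelial clusters on a taller axis, where cluster 3 sits at 9607 to 12773 CPM of mt-Nd.

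Lineages were then compared gene by gene, each against the mean of the other 5 in a fit with library as a term (edgeR quasi-likelihood, TMM scaling, Benjamini-Hochberg adjustment over 14003 genes, threshold 0.05). Of the 45 members, 44 entered this fit; mt-Nd4l, at 0 to 1.45 CPM in every sum, did not pass the filter on low counts. Lineages differ in many genes, so counts of members are set beside the share of all genes that passed in the same direction. These shares are for marked barcodes with TMM scaling, and lineage counts from other settings, such as whole clusters, have no share beside them. In whole clusters the neutrophil lineage, with a nuclear sum of 3634 ± 330 CPM, was part of the mean for every other lineage. Without TMM scaling the median log2 difference of all genes moved from −0.07 to 0.19 in the Cd3e lineage, from −0.03 to 0.17 in the Cdh5 lineage and from −0.06 to −0.27 in the Csf1r/Cd68 lineage. Small differences of either sign in these lineages therefore depend on the scaling.

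In epithelial barcodes the members with the largest rise were the supernumerary Ndufb9 and Ndufa4, whose protein is today assigned to complex IV. The mitochondrial mt-Nd2 and mt-Nd3 followed. Of the 38 nuclear members, 23 were higher and 4 lower (median log2 difference 0.24, against 0.03 over all genes), where 38.8% of all genes tested were higher and 34.5% lower. All 6 mt-Nd genes tested were higher (median 0.82). Without TMM scaling these counts were 19 and 6 nuclear and 4 and 0 mt-Nd. Ndufb9, a small protein of the distal membrane arm, stood at 617, 531 and 444 CPM in shNC libraries 1 to 3 and at 564, 581 and 635 CPM in shPgk1. In Csf1r/Cd68-marked barcodes the same gene stood at 188 to 233 CPM in the 6 libraries, below every epithelial value. Its log2 difference from the mean of the other lineages was 1.32 ± 0.08 (SE, adjusted p = 4.2e-16). Ndufa4 stood at 698, 645 and 545 CPM in the shNC libraries and at 720, 866 and 916 CPM in shPgk1, against 209 to 337 CPM in Csf1r/Cd68-marked barcodes (log2 difference 1.15 ± 0.08, adjusted p = 3.8e-15). Within each library the epithelial level was 2.31 to 3.00 times the macrophage level for Ndufb9 and 2.42 to 3.09 times for Ndufa4. Of the 7 core nuclear subunits, 6 were higher in epithelial barcodes and none lower. Ndufs7, which holds the iron-sulphur cluster next to the ubiquinone site, had a log2 difference of 0.60 ± 0.07 (adjusted p = 1.4e-09), and the core subunit Ndufv1, which binds NADH and the flavin cofactor, one of 0.46 ± 0.07 (adjusted p = 5.2e-07).

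The 4 nuclear members that were lower in epithelial barcodes were Ndufa4l2, Ndufa1, Ndufa3 and Ndufb10, the last 3 being small or supernumerary proteins of the membrane arm. Ndufa1, X-linked and needed for assembly, stood at 133 to 159 CPM in epithelial and at 271 to 287 CPM in macrophage barcodes, so the ranges were far apart and the within-library ratio was 0.472 to 0.554. The log2 difference from the other lineages was −0.54 ± 0.08 (adjusted p = 1.4e-07). Ndufa3 stood at 227 to 256 CPM in epithelial and 426 to 468 CPM in fibroblast barcodes (−0.52 ± 0.05 in the epithelial contrast, adjusted p = 7.0e-11), and Ndufb10 had a log2 difference of −0.31 ± 0.06. Epithelial barcodes thus held more Ndufb9 and less Ndufa1 transcript than macrophages, although both proteins belong to the same arm of the complex.

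**Figure D2:**
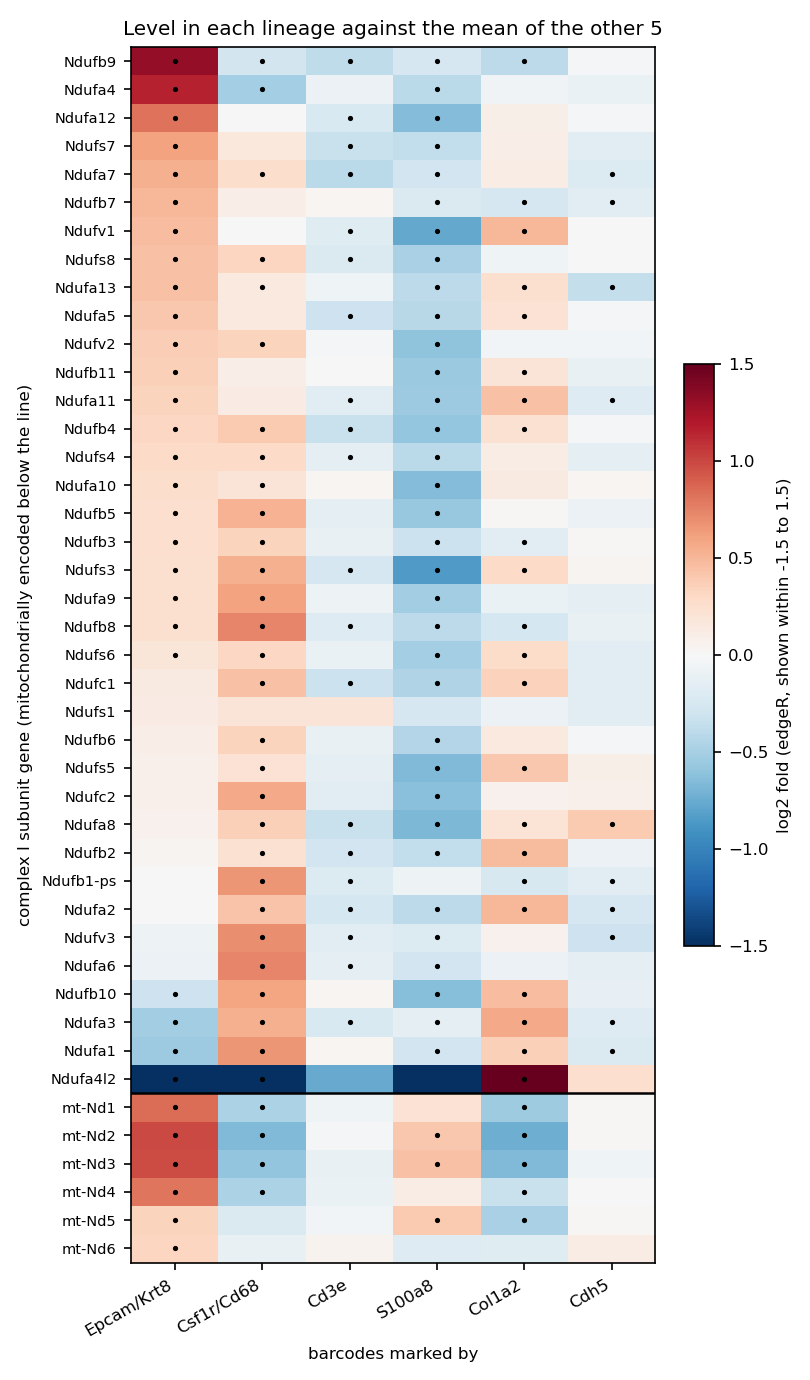
Log2 difference of the tested complex I genes but 1 (rows; mitochondrially encoded genes below the line) in each marked lineage (columns) from the mean of the other 5 lineages, coloured from −1.5 to 1.5, with a dot where the adjusted p was below 0.05. The Epcam/Krt8 column is red for all 6 mt-Nd genes, the S100a8 column is blue for the nuclear genes, and Ndufa4l2 stands out in the Col1a2 column at 6.10, beyond the colour range.

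Against the mean of the other 5 lineages, most nuclear members were higher in macrophage barcodes and most mt-Nd genes lower. That mean includes the neutrophil lineage, whose nuclear sum was 5511 ± 833 CPM. The macrophage nuclear sum, 7670 ± 325 CPM, was not above the epithelial one of 8095 ± 355 CPM. Of the 38 nuclear members 26 were higher and 3 lower (median 0.32, against −0.06 over all genes), where 30.8% of all genes were higher and 35.8% lower. Of the 6 mt-Nd genes tested none was higher and 4 were lower (median −0.48). Without TMM scaling the counts were 15 and 5 nuclear and 0 and 6 mt-Nd, and in whole clusters they were 32 and 2, and 0 and 6. The largest rises were in Ndufa6, Ndufb8, Ndufv3 and Ndufb1-ps. Ndufa6, a supernumerary subunit that docks the mitochondrial acyl carrier protein on the peripheral arm, stood at 428, 407 and 416 CPM in shNC and 419, 428 and 401 CPM in shPgk1, against 256 to 291 CPM in epithelial barcodes (log2 difference 0.74 ± 0.06, adjusted p = 5.0e-14). Ndufb8, in the distal membrane arm, stood at 260 to 309 CPM (0.73 ± 0.06). Ndufv3, a supernumerary subunit beside the NADH-binding site, stood at 359 to 392 CPM (0.69 ± 0.05), and Ndufb1-ps, which GENCODE M21 annotates as a bidirectional promoter lncRNA and not as protein coding, at 503 to 539 CPM (0.66 ± 0.05). Lower in macrophage barcodes were Ndufa4 (−0.51 ± 0.09, adjusted p = 6.7e-06), mt-Nd2 (−0.66 ± 0.13), mt-Nd3 (−0.59 ± 0.12) and Ndufa4l2, at 0.69 to 3.46 CPM (−1.88 ± 0.43). The pair Ndufb9 and Ndufa4, highest in epithelial barcodes, made up 2 of the 3 nuclear members lower in macrophages.

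The mt-Nd genes ordered the lineages in nearly the same way as one another. mt-Nd2, an antiporter-like subunit of the proton pump, stood at 559, 563 and 618 CPM in the shNC libraries and at 394, 428 and 399 CPM in shPgk1 epithelial barcodes, and at 153 to 220 CPM in macrophage barcodes. Every epithelial value was above every macrophage value, and the log2 difference of the epithelial lineage from the others was 1.00 ± 0.12 (adjusted p = 7.4e-09). mt-Nd1, which lies at the junction of both arms, averaged 832 ± 98.1 CPM in epithelial, 375 ± 69.1 in macrophage, 623 ± 135 in Cd3e-marked, 636 ± 328 in S100a8-marked, 379 ± 44.9 in fibroblast and 629 ± 114 CPM in Cdh5-marked barcodes (SD, n = 6). For mt-Nd4, another antiporter-like subunit, the means in that order were 715, 322, 529, 509, 367 and 534 CPM, and for mt-Nd2 they were 494, 180, 342, 369, 180 and 337 CPM. For mt-Nd5, the subunit at the far end of the membrane arm, they were 119, 80.9, 117, 127, 73.2 and 117 CPM, so that 4 lineages differed by less than their spread. For the small subunit mt-Nd3 the means were 61.4, 23.6, 41.3, 47.0, 23.7 and 40.6 CPM. The small membrane subunits mt-Nd6 and mt-Nd4l stood at 0 to 9.32 CPM and 0 to 1.45 CPM over all 36 sums of a library and lineage, so that mt-Nd4l rested on at most 16 UMIs in any of them. A macrophage and a fibroblast level could not be told apart for mt-Nd1, mt-Nd2, mt-Nd3 or mt-Nd6 beyond their SD. In marked barcodes both lay below the 3 middle lineages for mt-Nd1, mt-Nd2, mt-Nd3 and mt-Nd4 on average. Among clusters, mt-Nd1 averaged 387 CPM in the T cell and 369 CPM in the neutrophil cluster. It averaged 364 CPM in the main macrophage, 400 CPM in the fibroblast and 563 CPM in the endothelial cluster. In that order the means were 191, 219, 171, 192 and 305 CPM for mt-Nd2. They were 27.4, 31.8, 22.3, 24.4 and 28.4 CPM for mt-Nd3, and 328, 354, 316, 388 and 575 CPM for mt-Nd4. In clusters T cell and neutrophil mt-Nd1 and mt-Nd4 lay below the fibroblast means.

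The epithelial excess was not the same for all mitochondrial messages. Within libraries the ratio of epithelial to macrophage level was 1.81 to 3.89 for mt-Nd2 and 1.58 to 3.06 for mt-Nd1. It was 2.33 to 4.13 for mt-Cytb, which encodes the mitochondrial subunit of complex III. For mt-Co1, the catalytic subunit of complex IV, it was 0.749 to 1.34, on both sides of 1. All of these genes lie on the mitochondrial chromosome.

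Neutrophil barcodes held less of almost every nuclear subunit. Of the 38 nuclear members none was higher and 35 lower (median −0.44, against −0.11 over all genes), where 20.9% of all genes were higher and 21.7% lower. Without shPgk1 library 1, whose S100a8-marked barcodes mostly fell in other clusters, 33 were lower, and in whole clusters 37 were lower (median −1.27, against −0.48 over all genes). Large falls were those of the core subunits Ndufs3 and Ndufv1 and of Ndufa8. Ndufs3, a core subunit near the ubiquinone site, stood at 45.2, 43.1 and 52.3 CPM in shNC and 66.2, 44.4 and 50.1 CPM in shPgk1, on 32 to 61 UMIs a library. All 6 values were below the 95.4 to 112 CPM seen in macrophage barcodes, and the log2 difference was −0.85 ± 0.07 (adjusted p = 5.2e-12). Ndufv1 differed by −0.77 ± 0.11, and Ndufa8, a supernumerary protein on the intermembrane side, by −0.68 ± 0.08. The median UMI count of S100a8-marked barcodes was far below that of other lineages, at 1917 as the mean over the shNC libraries against 10097 for Epcam/Krt8 and 14207 for Csf1r/Cd68, and its part in the result was not tested. Cytoplasmic ribosomal protein genes were lower too, 75 of 78. For the mt-Nd genes the direction rested on how neutrophils were defined. mt-Nd3, mt-Nd2 and mt-Nd5 were higher in S100a8-marked barcodes (0.44 ± 0.16, 0.40 ± 0.13 and 0.40 ± 0.13), none was higher without shPgk1 library 1 or shPgk1 library 3, and all 3 were lower in whole clusters (−0.32, −0.36 and −0.21).

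Fibroblast barcodes were set apart by 1 member. Ndufa4l2 stood at 147, 104 and 122 CPM in shNC and 151, 159 and 165 CPM in shPgk1. Its mean in the other 5 lineages was 1.44 to 5.91 CPM and its highest single value there 11.3 CPM, so no fibroblast value was near any other (log2 difference 6.10 ± 0.18, adjusted p = 1.3e-22). The level in Cdh5-marked barcodes, 5.91 ± 3.52 CPM, was the next highest. Other nuclear members with large rises were Ndufa3 of the membrane arm (0.56 ± 0.05) and Ndufa2 of the NADH-binding module (0.50 ± 0.05). In all, 18 of 38 nuclear members were higher and 5 lower (median 0.14, against −0.09 over all genes; 32.2% of all genes were higher and 37.9% lower), 14 and 8 without TMM scaling, and 32 and 0 in whole clusters. Of 6 mt-Nd genes 5 were lower, led by mt-Nd2 (−0.74 ± 0.14), mt-Nd3 (−0.67 ± 0.13), mt-Nd1 (−0.54 ± 0.13) and mt-Nd5 (−0.49 ± 0.12).

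**Figure D3:**
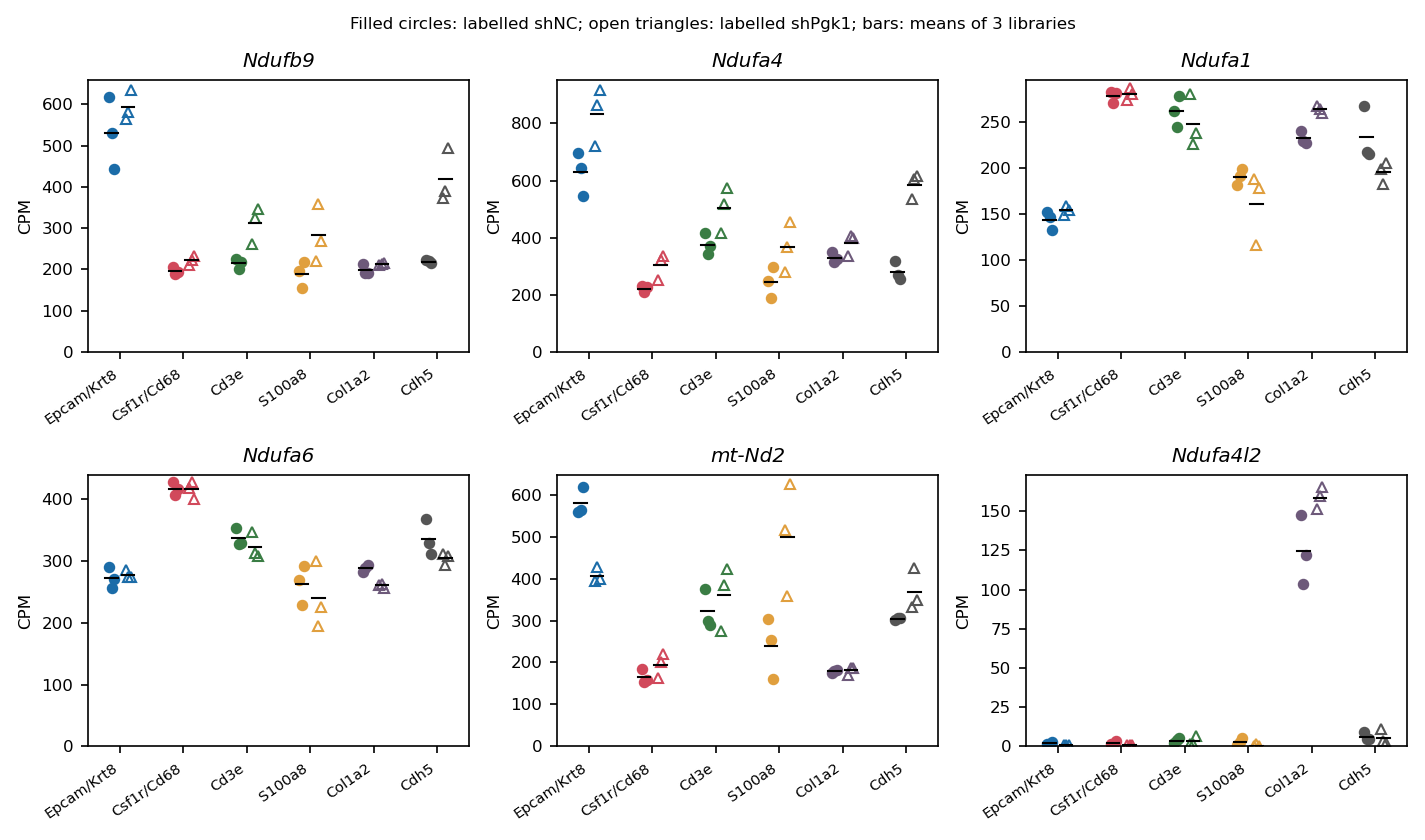
CPM of 6 complex I genes in each of the 6 marked lineages, 1 point per library (filled circles shNC, open triangles shPgk1), with bars at the mean of 3 libraries. Ndufb9, Ndufa4 and mt-Nd2 were highest in Epcam/Krt8-marked barcodes, Ndufa6 in Csf1r/Cd68-marked ones and Ndufa4l2 in Col1a2-marked ones, while Ndufa1 was lowest in Epcam/Krt8-marked barcodes.

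T cell and endothelial barcodes lay in the middle, and the sign of their small differences depended on the scaling. In the Cd3e lineage none of the 38 nuclear members was higher and 20 lower (median −0.16; 27.6% of all genes were higher and 34.0% lower), but 12 were higher and 1 lower without TMM scaling, and 8 higher and 9 lower in whole clusters. Leaving out shNC library 1, shNC library 3 or shPgk1 library 2 left 13 lower. The largest falls were in the supernumerary Ndufa7 (−0.41 ± 0.06, 230 to 303 CPM against 350 to 399 CPM in epithelial barcodes), Ndufb9 (−0.38 ± 0.09), Ndufa8 (−0.34 ± 0.07) and Ndufb4 (−0.33 ± 0.07). None of the 6 mt-Nd genes passed in either direction in Cd3e-marked barcodes, and all 6 were lower in T cell clusters (median −0.70). In the Cdh5 lineage 1 nuclear member was higher and 9 lower (median −0.11; 15.1% of all genes were higher and 15.2% lower), and 9 were higher and 1 lower without TMM scaling. Leaving out shNC library 3 left 3 lower and leaving out shPgk1 library 3 left 5. Ndufa8 was the member that rose. Its level was 158, 151 and 174 CPM in shNC and 195, 181 and 180 CPM in shPgk1 (log2 difference 0.39 ± 0.06, adjusted p = 5.2e-06). In endothelial clusters it reached 236 ± 31.9 CPM, against means of 58.6 to 133 CPM in the other cluster lineages. Among those lower were Ndufa13 (−0.36 ± 0.06), a supernumerary subunit also known as GRIM-19, Ndufv3 (−0.31 ± 0.06), Ndufa2 (−0.25 ± 0.06) and Ndufa1 (−0.21 ± 0.08).

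Other respiratory chain genes were counted in the same contrasts. In epithelial barcodes 13 of 17 nuclear complex V (ATP synthase) genes and 8 of 10 nuclear complex IV genes were higher, against 2 higher and 2 lower of 9 complex III genes and 1 of 4 complex II genes (Sdhc, 0.50 ± 0.06). In macrophage barcodes all 4 complex II genes, 8 of 9 complex III, 8 of 10 complex IV and 15 of 17 complex V genes were higher, led in complex IV by Cox5a (0.80 ± 0.06). In S100a8-marked barcodes all 9, 10 and 17 genes of complexes III, IV and V were lower. Of 17 complex I assembly factors, 9 were higher and 1 lower in epithelial and 7 higher and 4 lower in macrophage barcodes. Dmac1, a factor for the distal membrane arm, was the 1 lower in epithelial (−0.58 ± 0.08) and had the smallest p of those higher in macrophage barcodes (0.87 ± 0.07), whereas Ndufaf2, a factor related to Ndufa12, was higher in epithelial barcodes (0.77 ± 0.10). Of 9 tested regulators of mitochondrial gene expression, 5 were higher and 1 lower in epithelial barcodes. They included Polrmt, the mitochondrial RNA polymerase (0.85 ± 0.16), and Tfam, which packages and transcribes mitochondrial DNA (0.50 ± 0.09). Tfam was lower in macrophage barcodes (−0.64 ± 0.10), where the coactivator Ppargc1b was higher (1.10 ± 0.15).

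Across the 36 sums of a library and lineage, most nuclear members followed one another. The Pearson correlation of a gene's log2(CPM + 5) with the mean of the other nuclear members was highest for Ndufs6 (0.939), Ndufb4 (0.928) and Ndufs5 (0.923) and lowest for Ndufa4l2 (0.091), Ndufb1-ps (0.213) and Ndufa3 (0.247). mt-Nd1, mt-Nd2, mt-Nd3 and mt-Nd4 correlated at 0.939 to 0.982 with the mean of the other mt-Nd genes and at −0.071 to 0.092 with that of the nuclear members. The 36 sums share libraries, depth and lineages, so these values describe the pattern and carry no test. Neutrophils were the lowest lineage for 31 of the 38 nuclear members. The highest lineage was epithelial for 13, macrophage for 11, fibroblast for 9, endothelial for 3 and T cell for 2.

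Promoter windows (the 250 bases before the start in RefSeq, GRCm38.p6) were found for 32 of the 38 nuclear members. They were searched on both strands for the letters GCGCA, any base and GCGC, a motif of NRF1, a regulator of respiratory genes, and for CCGGAAG, an ETS-type motif. The first was in 6 of 32 windows (18.8%; Ndufa11, Ndufa5, Ndufa8, Ndufb4, Ndufs5 and Ndufs6) and in 3.86% of all 27025 windows. Its letters are mostly G and C, and median GC was 57.6% in member windows against 52% in all. The part of GC was not tested. The only match of Ndufa5, of Ndufa8 and of Ndufs6 lay inside the annotated gene, as did all but 1 of the 3 in Ndufb4. The second was in 3 of 32 (9.38%; Ndufb6, Ndufb7 and Ndufs3) and in 7.05% of all windows. The match of Ndufb7 and that of Ndufs3 lay inside the annotated gene. Of the members that moved most closely with the others, Ndufs6, Ndufb4 and Ndufs5 had the NRF1-type letters, as did the next in order, Ndufa11 (0.918), which was singled out after its value was seen. Ndufs3 (0.908), Ndufb11 (0.887) and Ndufa10 (0.883), which came after it, had none, while Ndufa8 (0.832) and Ndufa5 (0.809) had them. Whether the letters go with the correlation was not tested. A match is a description of the letters and not a site. Shown are the stretches upstream of the annotated gene for Ndufb4 (chr16:37654454-37654618, minus strand), Ndufs5 (chr4:123718203-123718436, minus strand) and Ndufa11 (chr17:56717512-56717761, plus strand). Ndufa4 (chr6:11907498-11907700, minus strand), whose window had no match, is also given. All are from RefSeq GRCm38.p6, 5′ to 3′, with the NRF1-type letters in capitals. 
Ndufb4: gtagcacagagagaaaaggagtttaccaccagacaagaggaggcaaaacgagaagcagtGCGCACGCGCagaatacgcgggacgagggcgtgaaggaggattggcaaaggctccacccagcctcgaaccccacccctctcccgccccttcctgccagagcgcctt
Ndufs5: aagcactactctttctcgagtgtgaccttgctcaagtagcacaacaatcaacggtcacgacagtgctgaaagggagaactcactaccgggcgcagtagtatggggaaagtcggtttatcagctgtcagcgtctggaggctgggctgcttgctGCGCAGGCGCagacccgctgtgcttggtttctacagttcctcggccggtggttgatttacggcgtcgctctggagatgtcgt
Ndufa11: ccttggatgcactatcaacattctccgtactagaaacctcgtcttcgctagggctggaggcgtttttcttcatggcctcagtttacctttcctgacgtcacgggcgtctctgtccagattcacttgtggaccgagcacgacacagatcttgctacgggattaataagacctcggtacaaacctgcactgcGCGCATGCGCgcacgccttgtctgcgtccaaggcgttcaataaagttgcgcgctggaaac
Ndufa4: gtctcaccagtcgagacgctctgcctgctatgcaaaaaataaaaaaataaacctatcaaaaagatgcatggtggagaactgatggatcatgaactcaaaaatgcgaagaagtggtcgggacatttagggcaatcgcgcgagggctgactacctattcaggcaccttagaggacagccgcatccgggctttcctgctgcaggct

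The second question was whether these genes differed between shPgk1 and shNC libraries within a lineage (3 libraries against 3, edgeR, group as the only term). In Epcam/Krt8-marked barcodes 2 mitochondrial members were lower in shPgk1 and no nuclear member passed, where 2.06% of all 13588 genes tested were lower. mt-Nd5 stood at 127, 163 and 136 CPM in shNC and 99.9, 94.7 and 91.1 CPM in shPgk1 (log2 difference −0.50 ± 0.11, adjusted p = 0.0425). mt-Nd2, whose values are given above, differed by −0.43 ± 0.10 (adjusted p = 0.0437). The groups did not overlap for either gene, nor for mt-Nd1 and mt-Nd4, whose differences of −0.18 ± 0.10 and −0.21 ± 0.11 did not pass. Ndufa4 had the smallest p of the nuclear members, at 545 to 698 CPM in shNC and 720 to 916 CPM in shPgk1 (0.49 ± 0.13, adjusted p = 0.0585). Over the 38 nuclear members the median log2 difference was 0.10, against −0.02 over all genes, and over the 6 mt-Nd genes it was −0.32. Per 100 nuclear counts, mt-Nd counts were 31.7 ± 4.14 in shNC and 23.6 ± 0.720 in shPgk1 (SD, n = 3 and 3). Neither mt-Nd call remained when shNC library 2, shNC library 3, shPgk1 library 2 or shPgk1 library 3 was left out, when the same marking limit was used in every library, or when barcodes above 5% mitochondrial UMIs were left out. Leaving out shNC library 1 gave 3 nuclear members higher and 2 mt-Nd genes lower, and leaving out shPgk1 library 1 gave 2 and 2.

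**Figure D4:**
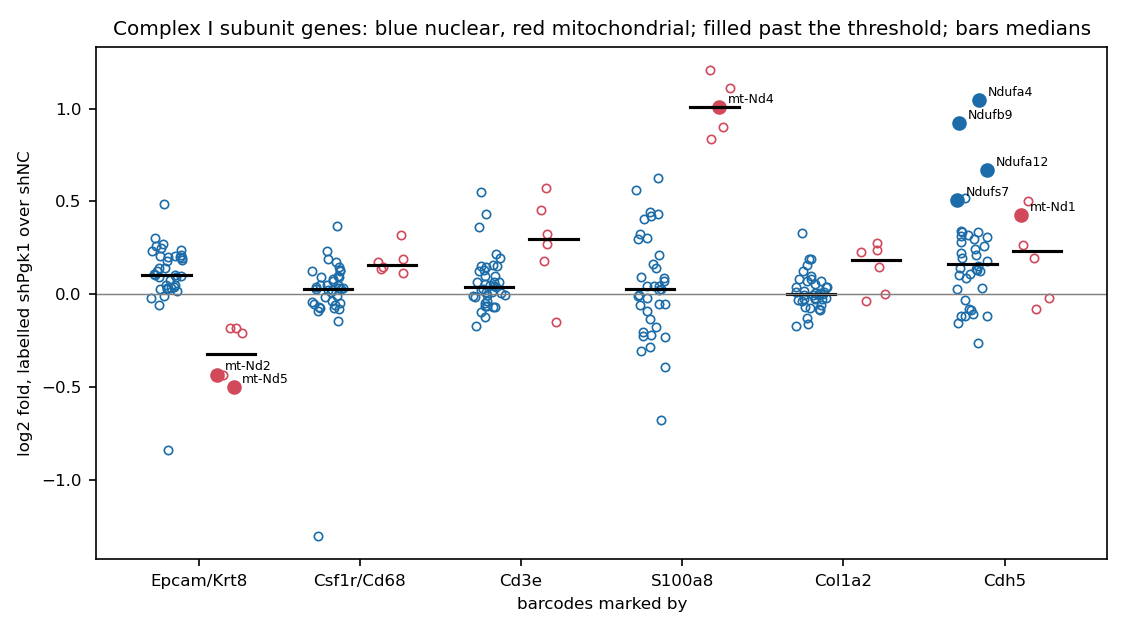
Log2 difference between shPgk1 and shNC for each tested complex I gene in each marked lineage, nuclear genes in blue and mitochondrial genes in red, filled and named where the adjusted p was below 0.05, with bars at the medians. The filled points are mt-Nd5 and mt-Nd2 below 0 in Epcam/Krt8-marked barcodes, mt-Nd4 above 0 in S100a8-marked ones and 5 genes above 0 in Cdh5-marked ones.

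Epcam/Krt8 marking kept 8.61 to 16.6% of a library's barcodes, whereas clusters named epithelial-like held 39.2 to 63.3%, so the comparison was repeated on those clusters. There 11 nuclear members were higher in shPgk1 and no mt-Nd gene passed, where 7.7% of all 16968 genes tested were higher. The 11 included the core subunits Ndufv2 (0.50 ± 0.14), which carries an iron-sulphur cluster of the NADH-binding module, Ndufs3 (0.40 ± 0.10) and Ndufv1 (0.34 ± 0.10). Of the genes counted as supernumerary, which include Ndufa4, Ndufa4 (0.64 ± 0.13, adjusted p = 0.0235), Ndufa12 (0.46 ± 0.10), Ndufa8 (0.45 ± 0.12), Ndufb11 (0.43 ± 0.12) and Ndufb5 (0.42 ± 0.12) had the largest differences. The count was 29 with DESeq2 and 5 without TMM scaling. It was 27 without shNC library 1, 10 without shPgk1 library 1 and 0 without shNC library 2, shNC library 3, shPgk1 library 2 or shPgk1 library 3.

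The epithelial-like clusters were 3 in number and differed strongly in complex I transcripts. Cluster 1, led by Prkg2, Krt18, Krt8 and Epcam, had 8796 ± 265 CPM of nuclear and 1695 ± 142 CPM of mt-Nd transcripts (SD, n = 6). Cluster 2, led by Tiam2, Efna5 and Sfn, had 7047 ± 473 and 3902 ± 354 CPM. Cluster 3, led by Zfp791, Peak1 and Taco1, had 4744 ± 92.7 and 11092 ± 1151 CPM. Median UMI counts were 17660, 8078 and 3930 in this order, and mitochondrial shares over libraries were 0.576 to 0.847%, 1.65 to 2.19% and 4.21 to 6.40%. Cluster 1 made up 17.6 to 32.4% of the epithelial-like barcodes in shNC and 43.7 to 53.5% in shPgk1, and cluster 2 made up 32.3 to 70.7% and 24.4 to 36.4%. Within each cluster none of the 11 genes passed: their median log2 differences were 0.06, 0.19 and 0.06, they were above 0 for 11, 11 and 8 of the 11, and the lowest adjusted p was 0.152, 0.207 and 0.266. The 11 were chosen from the pooled sums of these same clusters, so values above 0 were favoured beforehand. Levels of Ndufa4 and Ndufa12 are given as a description. Ndufa4 was at 669 to 739 CPM in shNC and 774 to 928 CPM in shPgk1 in cluster 1 and at 427 to 542 and 559 to 649 CPM in cluster 2. In cluster 3 it was at 290 to 334.6 CPM in shNC and 335.5 to 392 CPM in shPgk1. Ndufa12 was at 313 to 322 and 351 to 354 CPM in cluster 1 and at 216 to 239 and 254 to 264 CPM in cluster 2. The mt-Nd genes that were lower in Epcam/Krt8-marked barcodes were not lower within clusters 1 and 3. mt-Nd2 averaged 368 CPM in shNC and 373 CPM in shPgk1 in cluster 1, 879 and 806 CPM in cluster 2 and 2561 and 2664 CPM in cluster 3, and mt-Nd5 averaged 85.1 and 91.8, 219 and 208, and 972 and 1058 CPM, with overlapping groups in each. mt-Nd1 averaged 606 and 720 CPM in cluster 1, 1433 and 1552 CPM in cluster 2 and 3510 and 4388 CPM in cluster 3, and its groups overlapped in cluster 2 alone. No mt-Nd gene passed the test within any of the 3.

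**Figure D5:**
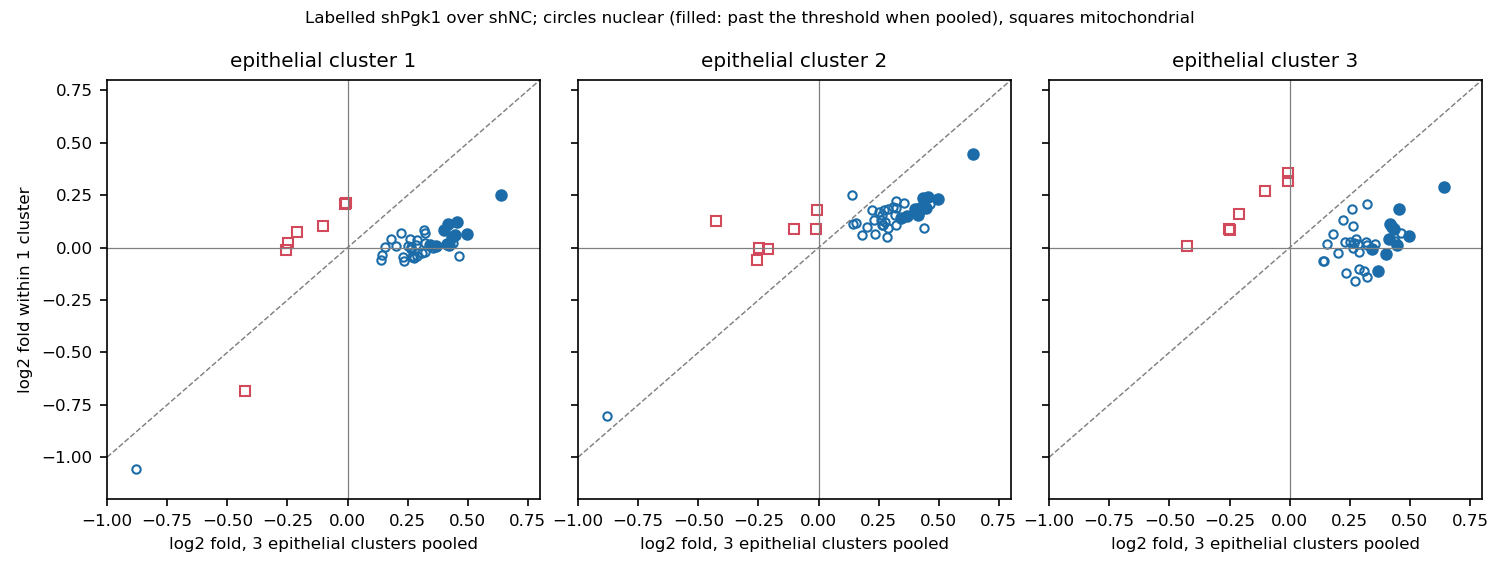
Log2 difference between shPgk1 and shNC for each complex I gene over the 3 pooled epithelial-like clusters (horizontal axis) and within 1 of them (vertical axis, 1 panel per cluster), circles nuclear and squares mitochondrial, filled where the pooled difference passed. The 11 filled points lie at 0.34 to 0.64 on the horizontal axis and at medians of 0.06, 0.19 and 0.06 on the vertical axis, below the dashed line of equal values.

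In Csf1r/Cd68-marked barcodes no member passed with edgeR or DESeq2, where 0.437% of all 14177 genes passed in either direction. Without shPgk1 library 1, 1 nuclear member passed. The smallest p-values belonged to Ndufa4 (209 to 229 CPM in shNC, 251 to 337 CPM in shPgk1, 0.37 ± 0.11, adjusted p = 0.159), mt-Nd1 (0.32 ± 0.09, adjusted p = 0.169) and Ndufa4l2 (−1.30 ± 0.43, adjusted p = 0.201). mt-Nd2 stood at 185, 153 and 159 CPM in shNC and 163, 202 and 220 CPM in shPgk1, with overlapping groups. The difference between the epithelial and the macrophage effect was tested directly, in a fit with library as a term. It passed for mt-Nd5 (−0.61 ± 0.12, adjusted p = 0.0099), mt-Nd2 (−0.57 ± 0.12, adjusted p = 0.0181) and mt-Nd1 (−0.49 ± 0.12, adjusted p = 0.0310), where 1.8% of all 14867 genes tested were lower. mt-Nd4 (−0.37 ± 0.12, adjusted p = 0.0960) and the other tested mt-Nd genes did not pass, nor did any nuclear member (median 0.13). No member passed in whole clusters, with a common marking limit, with at most 5% mitochondrial UMIs or without shPgk1 library 3, and 1 passed without shNC library 3 or shPgk1 library 2.

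In Cd3e-marked barcodes no member passed with edgeR, where 1.35% of all 12646 genes passed in either direction, and 1 passed with DESeq2. Ndufb9 came nearest, at 225, 200 and 219 CPM in shNC and 262, 325 and 347 CPM in shPgk1 (0.55 ± 0.12, adjusted p = 0.0558), followed by mt-Nd1 (0.45 ± 0.13, adjusted p = 0.113) and Ndufa4 (0.43 ± 0.13, adjusted p = 0.118). Without shPgk1 library 1, 3 nuclear members and 4 mt-Nd genes passed. In Col1a2-marked barcodes no member passed with edgeR or DESeq2, where 0.0413% of all 12118 genes passed with edgeR. mt-Nd1 differed by 0.27 ± 0.09 (adjusted p = 0.402), Ndufa4l2 by 0.33 ± 0.13 (adjusted p = 0.472) and mt-Nd5 by 0.22 ± 0.12 (adjusted p = 0.637).

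In S100a8-marked barcodes mt-Nd4 was higher in shPgk1, where 2.83% of all 6761 genes tested were higher. Its level was 383, 328 and 226 CPM in shNC and 664, 638 and 813 CPM in shPgk1 (1.01 ± 0.24, adjusted p = 0.0419), with groups that did not overlap. mt-Nd3 (1.21 ± 0.31, adjusted p = 0.0514) and mt-Nd1 (1.11 ± 0.30, adjusted p = 0.0603) came close to the threshold and did not pass. None of the 37 nuclear members tested passed (median 0.03). Beside the mt-Nd genes, 24 of 76 ribosomal protein genes were higher, and the neutrophil markers summed to 51836 to 81149 CPM in shNC and 5302 to 37547 CPM in shPgk1, the lowest in library 1. The part of these in the result was not tested. The neutrophil cluster held 60 barcodes in shPgk1 library 1, 29 of them placed in the S100a8 lineage. In whole neutrophil clusters, and where mark and cluster agreed, no complex I gene passed. None passed either when shNC library 1, 2 or 3 or shPgk1 library 3 was left out, while 5 passed without shPgk1 library 1 and 2 without shPgk1 library 2.

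In Cdh5-marked barcodes 5 members were higher in shPgk1, where 4.41% of all 10986 genes tested were higher. Ndufa4 stood at 318, 268 and 257 CPM in shNC and 535, 606 and 617 CPM in shPgk1 (1.05 ± 0.12, adjusted p = 0.0024), and Ndufb9 at 222, 220 and 215 CPM and 373, 390 and 493 CPM (0.92 ± 0.13, adjusted p = 0.0056). Ndufa12, of the NADH-binding module, stood at 162 to 181 CPM in shNC and 249 to 305 CPM in shPgk1 (0.67 ± 0.13, adjusted p = 0.0177), Ndufs7 at 110 to 125 and 159 to 187 CPM (0.51 ± 0.14, adjusted p = 0.0470) and mt-Nd1 at 480 to 578 and 675 to 780 CPM (0.43 ± 0.11, adjusted p = 0.0425). These 4 nuclear genes were also the 4 with the largest rise in the epithelial lineage contrast, and the epithelial markers in Cdh5-marked barcodes moved with them, at 715 to 956 CPM in shNC and 2175 to 2492 CPM in shPgk1. Markers of other cell types moved the other way there: 5 mast cell genes summed to 825 to 3207 CPM in shNC and 18.6 to 24.4 CPM in shPgk1, and 8 macrophage genes to 2999 to 4897 and 880 to 2723 CPM. The part of these in the result was not tested. In whole endothelial clusters, where the epithelial markers stood at 300 to 546 and 411 to 548 CPM, no member passed. These clusters held 42 to 101 barcodes a library. Of the 417 barcodes in these clusters 316 were Cdh5-marked, so the values of the 4 nuclear genes there are no separate evidence. Ndufa4 stood there at 207 to 260 CPM in shNC and 340 to 357 CPM in shPgk1 (0.51 ± 0.14, adjusted p = 0.486), Ndufa12 at 130 to 167 and 188 to 218 CPM (0.38 ± 0.15, adjusted p = 0.697), Ndufs7 at 88.8 to 89.8 and 111 to 130 CPM (0.36 ± 0.16, adjusted p = 0.778) and Ndufb9 at 147 to 189 and 190 to 205 CPM (0.15 ± 0.15, adjusted p = 0.922). No member passed where mark and cluster agreed, with a common marking limit or with a marking limit of 4 times, and 2 or 3 nuclear members but not mt-Nd1 passed when any 1 library was left out. With 2 passing, the library left out was shNC library 2 or shPgk1 library 3.

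Beyond complex I, no gene of complexes II to V or of the assembly factors passed between shPgk1 and shNC in Epcam/Krt8-, Csf1r/Cd68-, Cd3e- or Col1a2-marked barcodes. Of the other 6 mitochondrial messages, 2 were lower in Epcam/Krt8-marked (median −0.32) and 5 were higher in S100a8-marked barcodes (median 0.83). In Cdh5-marked barcodes 1 gene each of nuclear complexes IV and V and 1 of the other mitochondrial messages were higher, as were 25 ribosomal protein genes.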

How the data were processed

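The 6 libraries (shNC and shPgk1, 3 each) are droplet single-cell RNA-seq, and the authors deposited a matrix of UMI counts per gene and barcode for each. The tools named in the submitters' processing notes are PISA 0.12 and Seurat 4. The notes name a human build, GRCh38, whereas the deposited gene names are mouse. The members and gene lists were chosen with earlier results of these data known.

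Of 42902 barcodes, 643 were removed (under 500 UMIs, under 300 genes or above 20% mitochondrial UMIs) and 825 by a Scrublet score above 0.25, a limit chosen after the scores were seen because the automatic threshold marked a single barcode in 4 libraries. Barcode names are ordinals, so barcodes shared between libraries could not be counted. A barcode was marked for a lineage with at least 1 UMI of the marking genes and at least 2 times the level expected from its depth in that library, and barcodes marked for several lineages were left out. Because that limit follows each library's own level, marking depends on the makeup of the library: Epcam/Krt8-marked barcodes were 15.7 ± 1.01% of kept barcodes in shNC and 10.8 ± 2.66% in shPgk1 (SD, n = 3), whereas epithelial clusters held 42.0 ± 2.69% and 59.2 ± 4.13%. Clusters (scanpy 1.11.5, 2000 variable genes without complex I members, 30 components, 15 neighbours, Leiden resolution 0.5) were named from fixed markers, "X-like" in the sense of those markers only.

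Counts were summed per library and lineage and tested with edgeR 4.0.16 (quasi-likelihood, TMM, filterByExpr) in R 4.3.3, with DESeq2 1.42.0 as an alternative. Sums of marked barcodes held 87 barcodes or more, and some sums of whole clusters or agreeing barcodes held fewer. Members named were, by rule, up to 10 in each direction past an adjusted p of 0.05 in the epithelial and macrophage comparisons with shPgk1, 5 in other lineages, the 3 smallest p where under 3 passed, and the 4 largest in each direction per lineage contrast. The values of 1 nuclear member are not reported here, although it is part of all counts, sums and medians. The epithelial cluster comparison and the within-cluster fits were added after the data were seen. Median UMIs per kept barcode were 7962.5 to 11521, and counts of a few UMIs, as for mt-Nd4l, limit the precision. Pearson correlations used log2(CPM + 5). Promoter windows and sequences are from RefSeq, GRCm38.p6, and gene positions from GENCODE M21.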

Additional observations from a re-analysis of the deposited data

Results flagged for a closer look

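In 3 mitochondrial complex I genes the difference between shPgk1 and shNC was not the same in Epcam/Krt8-marked and in Csf1r/Cd68-marked barcodes, by a direct test of the difference (edgeR, n = 6 libraries). The epithelial minus macrophage log2 difference was −0.49 for mt-Nd1, −0.57 for mt-Nd2 and −0.61 for mt-Nd5. All 3 stood lower in shPgk1 than in shNC in Epcam/Krt8-marked barcodes, without overlap of the groups. Within the epithelial clusters mt-Nd1 was not lower, averaging 606 CPM in shNC and 720 CPM in shPgk1 in cluster 1. It averaged 1433 and 1552 CPM in cluster 2 and 3510 and 4388 CPM in cluster 3. mt-Nd2 and mt-Nd5 had overlapping groups in all 3. Their means were lower in shPgk1 in cluster 2 alone, at 879 and 806 CPM for mt-Nd2 and 219 and 208 CPM for mt-Nd5. In Csf1r/Cd68-marked barcodes mt-Nd1 stood at 332, 299 and 337 CPM in shNC and 381, 412 and 490 CPM in shPgk1, and mt-Nd5 at 73.6, 79.8 and 71.9 CPM against 79.4, 85.1 and 95.6 CPM. The makeup of the epithelial clusters moved with the group, and its part in these differences was not tested.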

How the results depend on the processing

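Counts below are complex I members that passed (edgeR unless another tool is named). The comparison of shPgk1 with shNC in Epcam/Krt8-marked barcodes (2) gave 0 with the replicate block, a marking limit of 4 times, at most 5% mitochondrial UMIs or a common marking limit, 11 in whole clusters and 0 to 5 with 1 library left out. In Csf1r/Cd68-marked barcodes (0) it gave 3 without a filter on low counts and 0 to 1 with 1 library left out. In Cd3e-marked barcodes (0) it gave 1 with DESeq2, without TMM or without the doublet filter, 6 without the count filter and 0 to 7 with 1 library left out. In S100a8-marked barcodes (1) it gave 3 with DESeq2 or without ribosomal-RNA-like genes, 5 without TMM or without the count filter, 4 with at most 5% mitochondrial UMIs, 0 with the replicate block, 4 times, clusters, no doublet filter, common limit or agreeing barcodes, and 0 to 5 with 1 library left out. In Cdh5-marked barcodes (5) it gave 3 with DESeq2 or the replicate block, 0 with 4 times, clusters, common limit or agreeing barcodes, and 2 to 3 with 1 library left out. In Col1a2-marked barcodes all 17 alternatives gave 0. In epithelial clusters (11) it gave 29 with DESeq2, 5 without TMM, 1 with the replicate block, 0 in each cluster alone and 0 to 27 with 1 library left out. The direct test of the difference (3) gave 0 with 4 times, clusters, at most 5% mitochondrial UMIs or a common limit and 0 to 4 with 1 library left out.

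The Cd3e contrast (20) gave 13 without TMM, 10 without the count filter and 13 to 18 with 1 library left out. The Cdh5 contrast (10) gave 19 in clusters, 28 with a common limit, 20 with agreeing barcodes and 4 to 12 with 1 library left out. Reversed in the S100a8 contrast were mt-Nd3 (−0.32), mt-Nd2 (−0.36) and mt-Nd5 (−0.21) in clusters, and mt-Nd2 with at most 5% mitochondrial UMIs (−0.20) or agreeing barcodes (−0.0042). The cause was not tested. The common limit and the agreeing barcodes were chosen after seeing the data. Same-numbered libraries correlated at −0.274 to 0.335 in their deviations from group means, so the numbers were not taken to pair samples, and the replicate block is given only as an alternative.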

Other observations

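Ndufa4l2 was unevenly spread among Col1a2-marked barcodes. After the values were seen, these were divided by Rgs5, a gene known as a pericyte marker. The 70 barcodes with at least 2 Rgs5 UMIs, summed over the 6 libraries, held 455 CPM of Ndufa4l2. The 1500 barcodes without Rgs5 held 127 CPM and the 92 with 1 UMI 66.3 CPM. Higd1b, another gene known from pericytes, stood at 406 CPM in the first and 0.504 CPM in the second, and Pdgfra, a fibroblast gene, at 15.4 and 95.5 CPM. Ndufa4 did not follow its paralog: it stood at 245 CPM in the first and 358 CPM in the second. By library, Ndufa4l2 was at 195 to 648 CPM in barcodes with at least 2 Rgs5 UMIs and at 102 to 150 CPM in those without, on 5 to 22 barcodes a library in the first. Most Ndufa4l2 UMIs, 3519 against 798, came from barcodes without Rgs5. These values are a description without a test.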
